A study of Mus musculus with 9 samples.

Results

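The 40 genes described here act in mitosis, the spindle and the kinetochore. They were chosen by symbol from a list of 40 names, all of which are rows of the deposited table of 17482 genes, and all 40 were among the 15251 genes that passed a filter on low values. Gene expression was measured by bulk RNA sequencing in 9 libraries of mouse tumour tissue, recorded as MB, at postnatal day 8 or 9. YSGr (rescued, n = 3) and YSGnr (non-rescued, n = 3) both carry the genotype fYap1;fSMO-M2;hGFAPcre, in which a floxed Yap1 allele is joined to the conditional SMO-M2 allele and a Cre driver under the human GFAP promoter. SG (n = 3) has the genotype fSMO-M2;hGFAPcre, without the floxed Yap1 allele. All 3 groups thus carry SMO-M2, a constantly active form of the Hedgehog signal transducer Smoothened, and no library of normal cerebellum was part of the comparison. The GFAP promoter is active in neural stem and progenitor cells, so Cre acts in many lineages of the brain and not in granule neuron progenitors alone. What counts as rescue, the sex of the animals and whether the libraries are from separate animals are not stated in the labels. The p-values therefore rest on library-to-library spread alone, part of which may be technical.

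Mitosis is driven by cyclin B and the kinase CDK1, with Polo and Aurora kinases setting up the spindle. Kinetochores, built on the centromere, join chromosomes to microtubules, and the spindle checkpoint holds back the anaphase-promoting complex until every chromosome is attached. Kinesin motors and microtubule binders shape the spindle, and the midzone then directs cytokinesis. Most of these genes are transcribed late in the cell cycle, so their RNA in a tissue follows how many of its cells are dividing. In the early postnatal cerebellum the dividing cells are mainly granule neuron progenitors, which multiply under Hedgehog signals. In bulk tissue, fewer dividing cells and less mitotic RNA per cell cannot be told apart.

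Levels are given as log2 CPM (read counts scaled to library size, on a log2 scale, as the authors deposited them), and a gene was called where limma's moderated test gave a Benjamini-Hochberg adjusted p below 0.05 over all 15251 tested genes. Of the 40 genes, 13 were lower in YSGr than in SG, none was higher and 27 were not called. That is 32.5% of the genes, where 3.97% of all tested genes were called lower and 6.58% higher. All 40 log2 fold changes were below 0, as were 52.3% of those of all tested genes, and 29 had an unadjusted p below 0.05. Their median was -0.74 (range -1.10 to -0.52), against -0.02 over all tested genes. In YSGnr against SG 1 gene, Cenpe, was lower and 39 were not called, or 2.5%, where 2.17% of all tested genes were called lower and 1.19% higher. The median there was -0.13 (range -0.71 to 0.40), with 25 values below 0 (50.7% over all tested genes) and 15 above, and the median of all tested genes was -0.01. In YSGr against YSGnr 2 genes, Nuf2 and Ncapg, were lower, or 5%, where 0.879% of all tested genes were called lower and 5.09% higher. All 40 values were below 0 there too, as were 49.5% over all tested genes, with a median of -0.69 (range -1.09 to -0.06), against 0.01 over all tested genes, and 28 of the 40 had an unadjusted p below 0.05. Neither Nuf2 nor Ncapg was called with no filter, with median scaling or with the 6 libraries of the comparison fitted alone. No gene of the 40 was higher at an unadjusted p below 0.05 in any of the 3 comparisons by limma. The 3 comparisons share libraries and are not independent of each other.

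The 3 YSGr libraries were unlike each other. The median of the 40 genes relative to the SG mean was -0.91 log2 units in YSGr replicate 1, -1.22 in replicate 2 and -0.13 in replicate 3. It was -0.18, -0.02 and -0.11 in the YSGnr libraries and -0.03, 0.07 and -0.04 in the SG libraries. Every one of the 40 genes was below all 3 SG libraries in YSGr replicates 1 and 2, where 42.2% and 44.8% of all tested genes were. None of the 40 was above all SG libraries there, where 40.2% and 38.5% of all tested genes were. In YSGr replicate 3, 21 of the 40 were below all SG libraries, where 36.5% of all tested genes were, and 10 were above all of them, where 44.2% of all tested genes were. In the YSGnr libraries 33, 18 and 21 of the 40 were below all SG libraries, where 44%, 41% and 42.8% of all tested genes were, and 0, 13 and 16 were above, where 35.4%, 41.2% and 41.9% of all tested genes were. Summed over the 40 genes the level was 2547, 2022 and 3801 CPM in YSGr, 4082, 4204 and 4120 CPM in YSGnr and 4601, 4806 and 4633 CPM in SG. The spread within YSGr, an SD of 0.56 of the per-library medians, was wider than the 0.08 of YSGnr and the 0.06 of SG (n = 3 each).

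**Figure D1:**
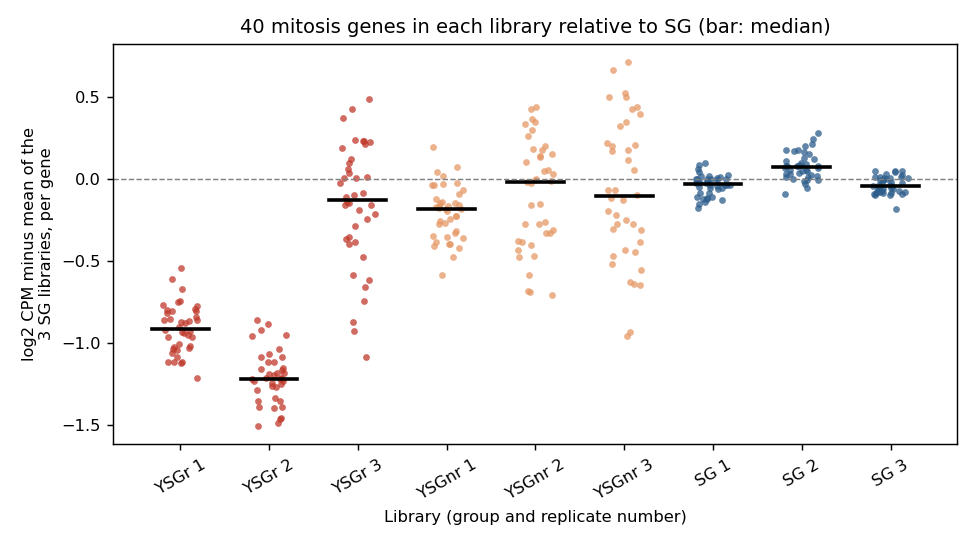
Each point is 1 of the 40 mitosis genes, plotted as its log2 CPM minus the mean of the 3 SG libraries, for each library on the horizontal axis, with a bar at the median. The clouds of YSGr replicates 1 and 2 lie wholly below 0 with medians of -0.91 and -1.22, while YSGr replicate 3 spans from -1.09 to 0.48 and overlaps the YSGnr and SG libraries.

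Leaving out YSGr replicate 3, which leaves 2 YSGr libraries, all 40 genes were lower in YSGr than in SG, where 13.6% of all tested genes were. Their log2 fold changes then ran from -1.34 to -0.70 with a median of -1.06. Without YSGr replicate 3, 36 were lower in YSGr than in YSGnr, where 20.6% of all tested genes were, and Plk1, Incenp, Cenpe and Cenpf were not called. In the same fit 5 were lower in YSGnr than in SG, where 10.4% of all tested genes were. The fold changes of YSGnr against SG were left as they were by that fit (median -0.13). Only the shared spread and the set of tested genes changed for YSGnr against SG. The count of 13 against SG came to 4 without YSGr replicate 1 and to 2 without replicate 2. It came to 2, 1 and 2 without SG replicates 1, 2 and 3, and to 14, 10 and 10 without YSGnr replicates 1, 2 and 3. Over the 9 fits that each left out 1 library, the share of all tested genes called lower in this comparison ranged from 0.435% to 13.6%. Cenpe alone was called in YSGr against SG in all 9 fits that left out 1 library, with adjusted p from 0.00267 to 0.0483. The other 12 called genes were kept in 2 to 7 of the 9 fits, with the highest adjusted p of any of them at 0.17.

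Some facts of the libraries bear on these values. Reads back-calculated from the table numbered 17.3 M to 29.2 M per library, except for 9.66 M in YSGnr replicate 1, of which the top 2 genes, Yam1 and Lars2, took 63.4%, against 2.77% to 8.15% elsewhere. The lowest of the 40 genes, Cdc25c, still had 70 reads there and at least 242 in the other 8 libraries, so no value rests on a handful of reads. Yap1, the targeted gene, read 4.44, 3.31 and 2.79 log2 CPM in YSGr, 2.79, 2.57 and 1.99 in YSGnr and 5.04, 5.11 and 5.03 in SG. It fell in YSGr against SG (-1.55, adjusted p = 0.0327) and in YSGnr against SG (-2.61, adjusted p = 0.0131), and YSGr against YSGnr was not called (1.06, adjusted p = 0.0959). Xist, the X-inactivation RNA, was at 9.81 to 10.66 log2 CPM in the 3 YSGr libraries and 10.81 in YSGnr replicate 1, and at -0.25 or less in YSGnr replicates 2 and 3 and in SG. The Y-linked gene Ddx3y was at the table's lowest value in those 4 libraries and at 4.97 or more in the other 5. In YSGr against SG the genotype and rescue label therefore cannot be told apart from these sex-linked transcripts. YSGnr replicate 1, the 1 YSGnr library with Xist, had a mitosis median of -0.18 relative to SG.

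Promoter sequence is shown because all 40 log2 fold changes against SG in YSGr had the same sign. Genes transcribed late in the cell cycle often carry the cell cycle homology region, read here as TTTGAA or TTCGAA, and the CCAAT box. The DREAM and MuvB complexes are known to act through the first of them. Windows from RefSeq on GRCm38.p6, from 250 bases before to 50 bases after each start, were at hand for 34 of the 40 genes. No window was used for Aurkb, Ccna2, Cdc25c, Incenp, Kif20a and Tpx2. On either strand, TTTGAA or TTCGAA was in the windows of 27 of the 34 genes (79.4%), against 21.7% of 27025 genes with a window. CCAAT was in 25 (73.5%), against 41.1%, and both kinds were in 23 (67.6%), against 8.61%. The homology motif began within 40 bases of the start in 25 of the 27. The 7 genes with neither form were Birc5, Ccnb1, Cenpe, Mad2l1, Ncaph, Nuf2 and Nusap1. A match is a run of letters and no measured binding site, and matches of the 2 kinds can share bases. The stretches just before the start are printed for 6 genes, with capitals at these motifs, which read TTCAAA for the first of them and ATTGG for the CCAAT box where the match is on the other strand. Cdk1 lies at chr10:69352913-69353032 (- strand), Top2a at chr11:99024190-99024349 (- strand), Ube2c at chr2:164769809-164769928 (+ strand), Kif11 at chr19:37376262-37376381 (+ strand), Ncapg at chr5:45669805-45669924 (+ strand) and Nuf2 at chr1:169531465-169531584 (- strand), each read 5′ to 3′ along its gene.
Cdk1: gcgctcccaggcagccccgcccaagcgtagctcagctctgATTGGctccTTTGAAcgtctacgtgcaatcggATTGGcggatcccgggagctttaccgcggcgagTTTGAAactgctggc
Top2a: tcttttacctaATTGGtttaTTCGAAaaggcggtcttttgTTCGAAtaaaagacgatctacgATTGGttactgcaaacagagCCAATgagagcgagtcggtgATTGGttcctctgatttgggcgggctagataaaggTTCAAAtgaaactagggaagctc
Ube2c: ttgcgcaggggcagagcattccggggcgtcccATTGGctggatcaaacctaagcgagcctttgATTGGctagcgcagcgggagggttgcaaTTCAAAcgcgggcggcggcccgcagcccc
Kif11: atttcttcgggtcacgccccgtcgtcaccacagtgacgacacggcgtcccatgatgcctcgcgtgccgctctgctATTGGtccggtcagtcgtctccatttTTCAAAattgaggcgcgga
Ncapg: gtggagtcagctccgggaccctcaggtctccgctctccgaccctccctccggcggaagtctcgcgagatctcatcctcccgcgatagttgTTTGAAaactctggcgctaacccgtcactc
Nuf2: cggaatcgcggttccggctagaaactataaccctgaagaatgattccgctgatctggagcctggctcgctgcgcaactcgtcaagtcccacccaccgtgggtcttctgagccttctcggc
Cdk1, Top2a, Ube2c and Kif11 show both kinds of motif, the printed Ncapg stretch shows the homology motif, its 1 CCAAT match lying further upstream in the window, and the Nuf2 window holds none. Ncapg and Nuf2 are set side by side because they were the 2 genes called in YSGr against YSGnr. The median log2 fold change in YSGr against SG was -0.76 over the 27 genes with the homology motif and -0.79 over the 7 without. Of the 27, 12 were called lower there, and of the 7, 1 was, where 3.97% of all tested genes were. The medians with and without the motif were -0.23 and 0.11 in YSGnr against SG. In YSGr against YSGnr they were -0.65 and -0.87. Whether the motif bears on these values was not tested.

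The cyclin B-CDK1 switch holds 5 genes, none called in any comparison. Cdk1 (ENSMUSG00000019942.13, chromosome 10, 69335146 to 69352938, GRCm38), the kinase that drives entry into mitosis, stood at 5.44, 5.17 and 6.79 log2 CPM in YSGr replicates 1, 2 and 3, 6.32, 6.93 and 7.06 in the YSGnr libraries and 6.55, 6.66 and 6.48 in the SG libraries. Ccnb1, which encodes its partner cyclin B1, stood at 6.03, 5.67 and 6.93 log2 CPM in YSGr replicates 1, 2 and 3, 6.67, 6.98 and 7.15 in the YSGnr libraries and 6.82, 6.91 and 6.77 in the SG libraries. For both, YSGr replicates 1 and 2 were the lowest of the 9 libraries and YSGr replicate 3 lay above the SG libraries. The log2 fold changes in YSGr against SG were -0.76 (SE 0.38, adjusted p = 0.239) for Cdk1 and -0.62 (adjusted p = 0.2) for Ccnb1. In YSGr against YSGnr they were -0.97 and -0.73, with an adjusted p of 0.115 for each. Over the 5 genes, which include the second cyclin B gene Ccnb2, the cyclin A gene Ccna2 and the CDK1-activating phosphatase gene Cdc25c, values against SG ran from -0.76 to -0.62 in YSGr and from 0.00 to 0.21 in YSGnr. Without YSGr replicate 3, Cdk1 was lower in YSGr than in SG by 1.26 log2 units, or 2.39-fold, with an adjusted p of 0.00316. That fit takes out the 1 YSGr library above SG and leaves 2. It was the only 1 of the 9 fits without 1 library that called Cdk1, and the adjusted p rose to 0.606 among the others.

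Of the 4 mitotic kinase genes, 2 fell in YSGr against SG, where 3.97% of all tested genes were called lower. That count ran from 0 to 4 with 1 library left out in turn. Bub1 (ENSMUSG00000027379.13, chromosome 2, 127801122 to 127831865), a kinetochore kinase that recruits centromere protectors, stood at 4.71, 4.54 and 5.24 log2 CPM in YSGr replicates 1, 2 and 3, 5.65, 5.55 and 5.18 in the YSGnr libraries and 5.77, 5.83 and 5.87 in the SG libraries. It fell by 1.00 on the log2 scale (SE 0.20, adjusted p = 0.0173), with all 3 YSGr libraries below all SG libraries. Ttk, the checkpoint kinase that starts the signal at unattached kinetochores, stood at 4.14, 3.69 and 4.81 log2 CPM in YSGr replicates 1, 2 and 3, 5.06, 5.17 and 4.90 in the YSGnr libraries and 5.15, 5.20 and 5.19 in the SG libraries. It fell by 0.97 (SE 0.25, adjusted p = 0.0372), and again no YSGr library reached the SG range. Plk1, the Polo-like kinase of the spindle, and Aurka, the Aurora kinase of the spindle poles, were not called in this comparison (-0.54 and -0.56, adjusted p = 0.273 and 0.405). In YSGnr against SG these 2 differed in sign, with -0.48 for Plk1 and 0.40 for Aurka, and neither was called (adjusted p = 0.305 and 0.519).

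The chromosomal passenger complex, which corrects faulty attachments and later marks the midzone, had none of its 4 genes called. Cdca8, the gene of its subunit borealin, stood at 5.06, 4.67 and 6.08 log2 CPM in YSGr replicates 1, 2 and 3, 5.82, 6.03 and 5.93 in the YSGnr libraries and 6.18, 6.21 and 6.15 in the SG libraries. YSGr replicates 1 and 2 were more than 1 log2 unit below SG and YSGr replicate 3 was close to it, which gave -0.91 (SE 0.30, adjusted p = 0.0837). Incenp, the scaffold of the complex, stood at 6.10, 5.74 and 6.66 log2 CPM in YSGr replicates 1, 2 and 3, 6.38, 6.09 and 6.22 in the YSGnr libraries and 6.78, 6.84 and 6.72 in the SG libraries. All YSGr and all YSGnr libraries were below the SG libraries for Incenp, by 0.61 log2 units in YSGr (adjusted p = 0.103) and 0.55 in YSGnr (adjusted p = 0.153). The kinase gene Aurkb and the survivin gene Birc5 had -0.62 and -0.70 in YSGr against SG.

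None of the 4 genes of the spindle checkpoint and the anaphase-promoting complex was called. Mad2l1, the checkpoint protein that binds and holds back CDC20, stood at 4.68, 4.36 and 5.75 log2 CPM in YSGr replicates 1, 2 and 3, 5.69, 6.14 and 6.24 in the YSGnr libraries and 5.74, 5.71 and 5.71 in the SG libraries. Here YSGr replicate 3 was level with SG and YSGnr replicates 2 and 3 were above it. The log2 fold change of Mad2l1 in YSGr was -1.09 against YSGnr (SE 0.31, adjusted p = 0.065) and -0.79 against SG (adjusted p = 0.15). Bub1b, a further part of the checkpoint complex, stood at 5.83, 5.49 and 6.82 log2 CPM in YSGr replicates 1, 2 and 3, 6.62, 6.82 and 6.90 in the YSGnr libraries and 6.86, 6.91 and 6.78 in the SG libraries. Its log2 fold change in YSGr against SG was -0.80 (adjusted p = 0.111). Cdc20, the activator of the anaphase-promoting complex, and Ube2c, its ubiquitin-conjugating enzyme, had -0.63 and -0.63 in YSGr against SG.

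At the centromere and kinetochore 2 of 6 genes fell in YSGr against SG, 1 in YSGnr against SG and 1 in YSGr against YSGnr. Of all tested genes 3.97%, 2.17% and 0.879% were called lower there. With 1 library left out in turn these counts ran from 1 to 6, from 0 to 2 and from 0 to 4. Cenpe (ENSMUSG00000045328.11, chromosome 3, 135212537 to 135273611), the kinesin that moves chromosomes to the spindle equator, stood at 6.17, 5.81 and 6.10 log2 CPM in YSGr replicates 1, 2 and 3, 6.55, 6.32 and 6.09 in the YSGnr libraries and 6.91, 7.10 and 7.08 in the SG libraries. All 6 YSGr and YSGnr libraries were below the SG libraries. Cenpe fell by 1.00 in YSGr (2.01-fold lower, SE 0.16, adjusted p = 0.00722). In YSGnr against SG it fell by 0.71 (SE 0.16, adjusted p = 0.0473), and the YSGr against YSGnr difference of -0.30 was not called (adjusted p = 0.207). The YSGnr call was kept in 2 of the 9 fits that left out 1 library, with adjusted p from 0.0132 to 0.196. Over the 20 alternatives the YSGnr value of Cenpe ran from -0.82 to -0.23. Its transcript is long (7910 bases), and with the length trend removed none of the 40 genes was called in YSGnr against SG.

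Cenpf, a large kinetochore protein of late G2 and mitosis, stood at 7.25, 6.97 and 6.77 log2 CPM in YSGr replicates 1, 2 and 3, 7.51, 7.18 and 6.90 in the YSGnr libraries and 7.80, 7.89 and 7.88 in the SG libraries. It fell by 0.86 in YSGr against SG (SE 0.18, adjusted p = 0.0203), and for this gene YSGr replicate 3, not 1 or 2, was the lowest of the YSGr libraries. The YSGnr libraries lay below SG as well, with -0.67 and an adjusted p of 0.072. Over the 20 alternatives that YSGnr value ran from -0.82 to -0.08, and the Cenpf transcript is 11130 bases long. Nuf2 (ENSMUSG00000026683.14, chromosome 1, 169497934 to 169531464), part of the NDC80 complex that grips microtubules, stood at 4.78, 4.62 and 5.56 log2 CPM in YSGr replicates 1, 2 and 3, 5.66, 6.02 and 6.24 in the YSGnr libraries and 5.81, 5.83 and 5.89 in the SG libraries. Nuf2 was lower in YSGr than in YSGnr by 0.99 log2 units (1.98-fold, SE 0.24, adjusted p = 0.0476), with all 3 YSGr libraries below all 3 YSGnr libraries, and -0.86 in YSGr against SG was not called (adjusted p = 0.0537). The call was kept in 2 of the 9 fits without 1 library (adjusted p from 0.000888 to 0.2). Ndc80 and Spc25, of the same complex, had -0.68 and -0.75 in YSGr against YSGnr, and Cenpa, the centromeric histone H3 variant, had -1.02, none of them called.

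Of the 4 spindle kinesin genes 2 fell in YSGr against SG, where 3.97% of all tested genes were called lower. That count ran from 0 to 4 with 1 library left out in turn. Kif15, a motor that helps keep the spindle bipolar, stood at 5.13, 4.89 and 5.73 log2 CPM in YSGr replicates 1, 2 and 3, 6.15, 5.92 and 5.83 in the YSGnr libraries and 6.31, 6.39 and 6.35 in the SG libraries. Its fall of 1.10 (2.14-fold lower, SE 0.20, adjusted p = 0.0137) was the largest of the 40 genes in this comparison. Kif11, the motor that pushes the spindle poles apart, stood at 6.45, 6.12 and 6.83 log2 CPM in YSGr replicates 1, 2 and 3, 7.27, 6.98 and 6.87 in the YSGnr libraries and 7.28, 7.36 and 7.28 in the SG libraries. It fell by 0.84 (SE 0.19, adjusted p = 0.0242). For both genes no YSGr library overlapped SG, and YSGr replicate 3 stood between the other YSGr libraries and SG. Kif4, which acts on chromosome arms and the midzone, had -0.84 (adjusted p = 0.0681), and Kif2c, which takes microtubules apart at the centromere, had -0.54 (adjusted p = 0.373), with YSGr replicate 3 above all SG libraries for Kif2c.

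Of the 4 spindle microtubule binders 2 fell in YSGr against SG, where 3.97% of all tested genes were called lower. That count ran from 0 to 4 with 1 library left out in turn. Prc1, which bundles antiparallel microtubules at the midzone, stood at 6.05, 5.87 and 6.47 log2 CPM in YSGr replicates 1, 2 and 3, 6.42, 6.55 and 6.35 in the YSGnr libraries and 6.71, 6.93 and 6.83 in the SG libraries. It fell by 0.69 (SE 0.17, adjusted p = 0.03). Hmmr, a spindle assembly factor also known as a hyaluronan receptor, stood at 5.12, 4.80 and 5.26 log2 CPM in YSGr replicates 1, 2 and 3, 5.59, 5.33 and 5.35 in the YSGnr libraries and 5.57, 5.83 and 5.57 in the SG libraries. It fell by 0.60 (SE 0.16, adjusted p = 0.0425), the smallest of the 13 called differences. All 4 binders, with Tpx2 (-0.69), which activates Aurora A, and Nusap1 (-0.93), which stabilises spindle microtubules, had YSGr libraries that did not overlap SG. Of all tested genes 17.3% had all YSGr libraries below all SG libraries.

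Midzone and cytokinesis genes gave 2 calls of 5 in YSGr against SG, where 3.97% of all tested genes were called lower. That count ran from 0 to 5 with 1 library left out in turn. Ect2, the exchange factor that starts assembly of the contractile ring, stood at 5.23, 4.92 and 5.51 log2 CPM in YSGr replicates 1, 2 and 3, 5.82, 5.69 and 5.52 in the YSGnr libraries and 6.13, 6.25 and 6.13 in the SG libraries. It fell by 0.95 (SE 0.16, adjusted p = 0.0101), a call kept in 7 of the 9 fits without 1 library. In YSGnr the Ect2 libraries were also below SG (-0.49, adjusted p = 0.111). Racgap1, a subunit of centralspindlin, stood at 6.65, 6.37 and 7.34 log2 CPM in YSGr replicates 1, 2 and 3, 7.16, 7.32 and 7.27 in the YSGnr libraries and 7.58, 7.58 and 7.59 in the SG libraries. It fell by 0.80 (SE 0.22, adjusted p = 0.0485), and its call was kept in 2 of the 9. Its centralspindlin partner Kif23 had -0.75, the ring scaffold gene Anln -0.64 and the midzone kinesin gene Kif20a -0.52, and none of these was called.

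Chromosome structure genes had the highest share called, 3 of 4 in YSGr against SG, where 3.97% of all tested genes were called lower. This count ran from 0 to 4 with 1 library left out in turn. The transcripts of the 3 called genes (3703 to 10061 bases) are longer than that of Ncaph (2695 bases). Ncapg (ENSMUSG00000015880.13, chromosome 5, 45669919 to 45700546), a condensin I subunit, stood at 4.93, 4.72 and 5.19 log2 CPM in YSGr replicates 1, 2 and 3, 5.98, 5.55 and 5.55 in the YSGnr libraries and 5.78, 6.11 and 5.92 in the SG libraries. It fell by 0.99 against SG (SE 0.18, adjusted p = 0.0119) and fell by 0.75 against YSGnr (SE 0.18, adjusted p = 0.0455), and in neither comparison did the groups overlap. It was the 1 gene of the 40 called against both. The second call was kept in 2 of the 9 fits without 1 library (adjusted p from 0.00462 to 0.19). Mki67, the Ki-67 protein that coats mitotic chromosomes, stood at 8.96, 8.48 and 8.94 log2 CPM in YSGr replicates 1, 2 and 3, 9.65, 9.41 and 9.19 in the YSGnr libraries and 9.84, 9.76 and 9.85 in the SG libraries, and YSGr replicate 3 was here as low as replicate 1 (-1.02, adjusted p = 0.0141). Top2a, the topoisomerase that untangles sister DNA, stood at 8.20, 7.89 and 8.69 log2 CPM in YSGr replicates 1, 2 and 3, 9.04, 9.06 and 8.97 in the YSGnr libraries and 9.07, 9.04 and 9.11 in the SG libraries. It fell by 0.81 in YSGr against SG (SE 0.20, adjusted p = 0.0327), and the YSGnr libraries overlapped SG (-0.05, adjusted p = 0.894). Ncaph, a further condensin I subunit, had -0.69 (adjusted p = 0.131).

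**Figure D2:**
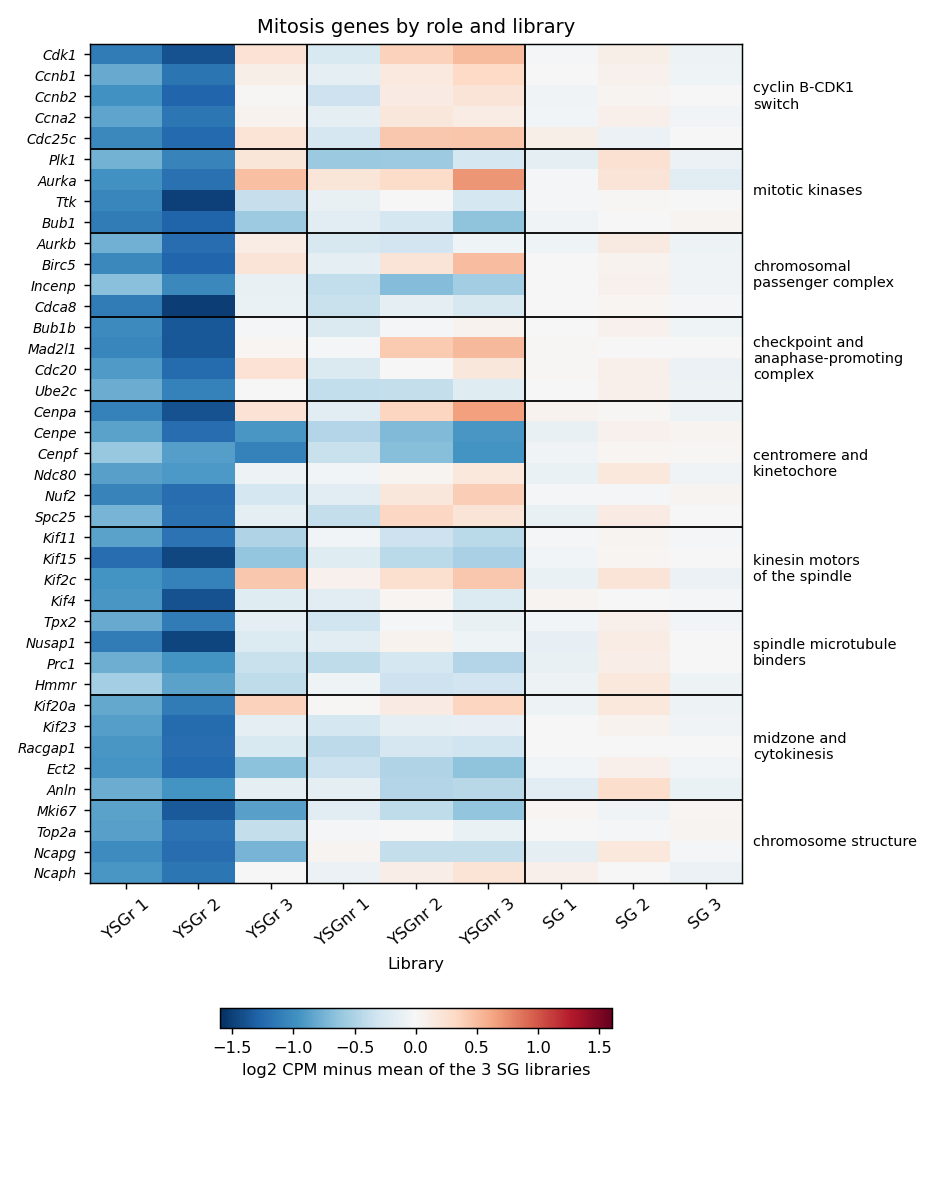
Each row is 1 of the 40 genes, grouped by role, and each column 1 library. Colour gives log2 CPM minus the mean of the 3 SG libraries, blue for lower and red for higher. YSGr replicates 1 and 2 are blue in every row, and YSGr replicate 3 is blue in rows such as Cenpf and Mki67 and pale or red in rows such as Cdk1 and Kif2c.

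Per kilobase of transcript, on a CPM per kb scale, the 40 genes covered a wide range. Top2a was the most abundant at 58.7 in YSGr, 99.8 in YSGnr and 103 in SG (back-transformed means), followed in SG by Mki67 (89.7), Cenpa (78.2) and Ccna2 (77.8). The lowest were Mad2l1 (6.58 CPM per kb) and Ttk (6.62) in YSGr, Cenpe (10.1) and Anln (10.2) in YSGnr, and Cdc25c (11.1) and Mad2l1 (11.3) in SG.

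**Figure D3:**
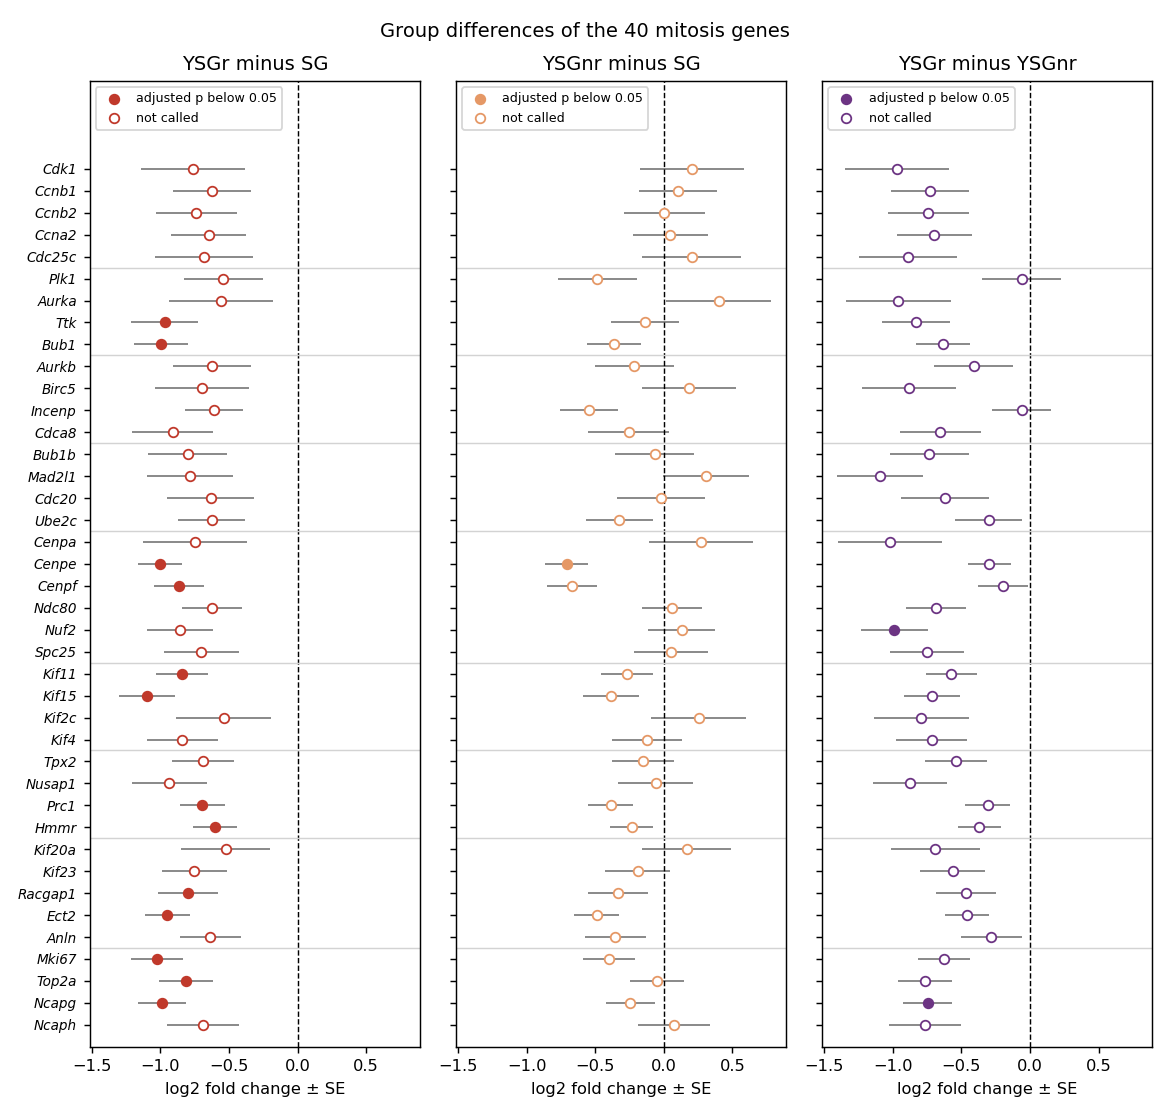
Each row is 1 gene, ordered by role, with its log2 fold change and standard error in 3 panels, YSGr minus SG, YSGnr minus SG and YSGr minus YSGnr (n = 3 libraries a group). Filled points mark the 13, 1 and 2 genes called at an adjusted p below 0.05, and all 40 points lie left of 0 in the YSGr minus SG and YSGr minus YSGnr panels.

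The separation of single libraries gave a further count. In YSGr against SG, 21 of the 40 genes had all YSGr libraries below all SG libraries, where 17.3% of all tested genes did. In YSGnr against SG there were 14, where 21.3% of all tested genes did. In YSGr against YSGnr there were 11, where 7.46% of all tested genes did. With 3 libraries against 3, an exact permutation test of a single gene cannot go below p = 0.10.

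Which genes were called went with transcript length. Lengths were the median exonic length of protein-coding transcripts in GENCODE M21. The 20 longer genes (2992.5 bases or more) held 12 of the 13 calls in YSGr against SG, and the 20 shorter genes (2939.5 bases or less) held 1, Ttk. The median length was 4024 bases for the called genes and 2199 bases for the others. Median log2 fold changes were -0.83 for the longer and -0.67 for the shorter genes. In single libraries, relative to the SG mean, the longer genes had a median of -0.37 in YSGr replicate 3 and the shorter ones 0.08. YSGr replicates 1 and 2 had no such split, with -0.88 and -0.94 in replicate 1 and -1.22 and -1.21 in replicate 2 for longer and shorter genes. YSGnr replicates 2 and 3 had the split (-0.28 and 0.15 in replicate 2, -0.35 and 0.20 in replicate 3 for longer and shorter genes) and YSGnr replicate 1 did not (-0.17 and -0.21).

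As a description across genes, which share each library's preparation and are not independent, Spearman's rank correlation between length and the difference from SG over the 40 genes was 0.10, 0.04 and -0.68 in the YSGr libraries and 0.14, -0.51 and -0.60 in the YSGnr libraries. Over 15100 tested genes with a length it was 0.15, 0.13 and -0.39 in YSGr and -0.07, -0.53 and -0.49 in YSGnr, so the negative relation in YSGr replicate 3 and in YSGnr replicates 2 and 3 was also present over all tested genes. With the length trend removed from each library, 19 of the 40 were lower in YSGr against SG, where 6.05% of all tested genes were, and 13 in YSGr against YSGnr, where 4.58% were. In YSGnr against SG none was then lower, where 1.72% of all tested genes were, and 3 had an unadjusted p below 0.05 by limma. With the trend removed and YSGr replicate 3 left out, an alternative added after seeing the data, the counts were 40 in YSGr against SG (17.8% of all tested genes), 39 in YSGr against YSGnr (22.1%) and 5 in YSGnr against SG (7.99%).

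**Figure D4:**
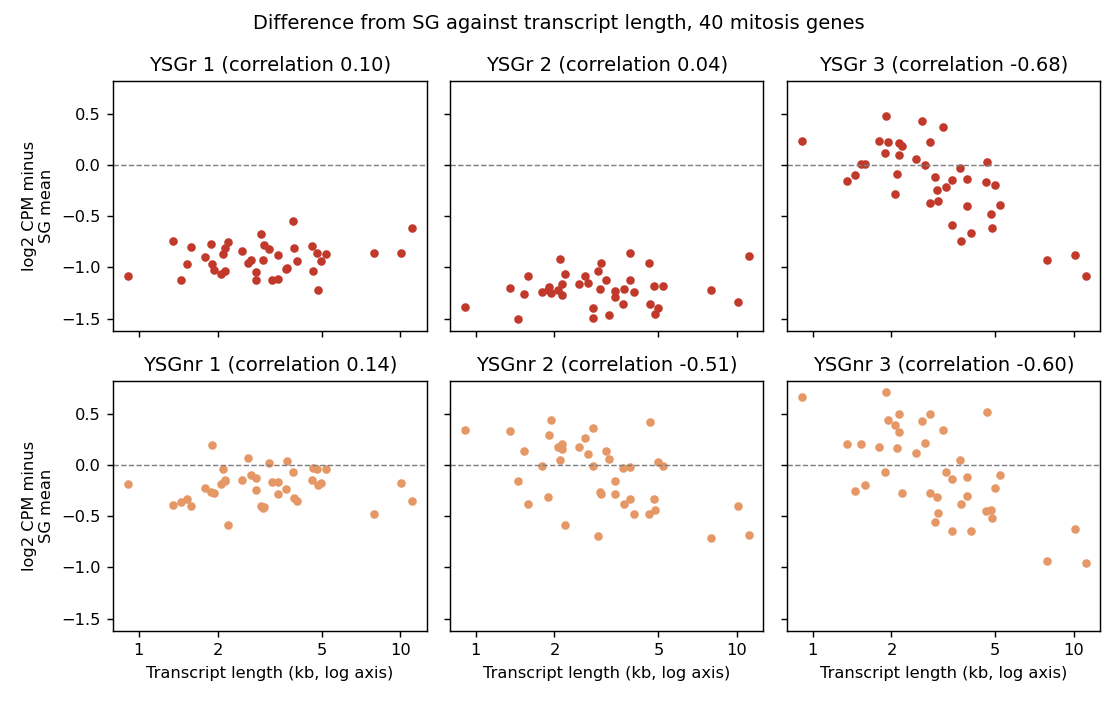
The difference from the SG mean (log2 units) is plotted against transcript length for the 40 genes in each YSGr and YSGnr library. Points slope downward in YSGr replicate 3 (correlation -0.68) and YSGnr replicates 2 and 3 (correlation -0.51 and -0.60) and show no slope in YSGr replicates 1 and 2 (correlation 0.10 and 0.04).

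A wider list held 91 mitosis genes outside the 40. Of these, 18 were lower in YSGr against SG (19.8%, where 3.97% of all tested genes were) and none was higher, with a median of -0.65. In YSGnr against SG 2 were lower (2.2%, where 2.17% of all tested genes were) and none higher, with a median of 0.08. In YSGr against YSGnr 9 were lower (9.89%, where 0.879% of all tested genes were) and none higher, with a median of -0.68. Mastl, the kinase that keeps a mitotic phosphatase off, stood at 3.67, 3.33 and 3.80 log2 CPM in YSGr replicates 1, 2 and 3, 4.47, 4.49 and 4.42 in the YSGnr libraries and 4.23, 4.52 and 4.47 in the SG libraries. It was lower against SG (-0.81, SE 0.16, adjusted p = 0.0172) and against YSGnr (-0.86, SE 0.16, adjusted p = 0.0307), and all 3 YSGr libraries were below the other 6. The centromere guardian gene Sgol2 (-0.84, SE 0.15, adjusted p = 0.0121) and the checkpoint gene Zwilch (-0.99, SE 0.19, adjusted p = 0.0168) fell in YSGr against SG.

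Arhgap11a and Depdc1a were lower in both groups with the floxed Yap1 allele. For Arhgap11a the values were -0.89, SE 0.15, adjusted p = 0.00942 in YSGr against SG and -0.87, SE 0.15, adjusted p = 0.0226 in YSGnr against SG. For Depdc1a they were -1.11, SE 0.20, adjusted p = 0.0121 and -0.94, SE 0.20, adjusted p = 0.0411 in the same 2 comparisons. In YSGr against YSGnr the condensin gene Smc2 (-1.35, SE 0.28, adjusted p = 0.0368), the kinetochore gene Cenph (-1.28, SE 0.28, adjusted p = 0.0401), the mitotic kinase gene Pbk (-0.93, SE 0.21, adjusted p = 0.0423) and the kinesin gene Kif18a (-0.90, SE 0.21, adjusted p = 0.0456) fell. Smc2 stood at 6.56, 6.29 and 7.53 log2 CPM in YSGr replicates 1, 2 and 3, 8.01, 8.35 and 8.07 in the YSGnr libraries and 7.91, 7.89 and 7.99 in the SG libraries, so that its YSGr libraries were all below the YSGnr and SG libraries. Without YSGr replicate 3 the counts of the 91 were 71, 2 and 70 lower in YSGr against SG, YSGnr against SG and YSGr against YSGnr, where 13.6%, 10.4% and 20.6% of all tested genes were. The 18 lower in YSGr against SG came to 4 and 2 without YSGr replicates 1 and 2 and to 4, 0 and 1 without SG replicates 1, 2 and 3. The 9 lower in YSGr against YSGnr came to 34 without YSGnr replicate 1 and to 0 without any 1 of the other 7 libraries.

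Foxm1 and Mybl2, transcription factors of the mitotic genes and chosen after their values were seen, were not called. Foxm1 had -0.81 (SE 0.25, adjusted p = 0.0752) in YSGr against SG, -0.49 (adjusted p = 0.249) in YSGnr against SG and -0.32 (adjusted p = 0.384) in YSGr against YSGnr. For Mybl2, which acts with the MuvB complex, these were -0.93 (SE 0.32, adjusted p = 0.105), 0.23 (adjusted p = 0.679) and -1.15 (adjusted p = 0.0624). Mybl2 read 4.42, 4.15 and 5.62 log2 CPM in the 3 YSGr libraries, 5.75, 5.75 and 6.15 in YSGnr and 5.69, 5.64 and 5.64 in SG, so YSGr replicate 3 was again near SG. Lin9 and Lin54 of the MuvB complex, read with these 2, had smaller values in YSGr against SG and were not called. Lin9 had -0.26 (adjusted p = 0.429), 0.24 (0.438) and -0.50 (0.108) in the same 3 comparisons. Lin54 had -0.46 (adjusted p = 0.117), -0.25 (0.359) and -0.21 (0.383).

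Lists of other cycling-cell genes and of cell types were read beside the 40. Of 38 genes of DNA replication and the G1/S step, 4 were lower and none higher in YSGr against SG (10.5%, where 3.97% of all tested genes were lower), with per-library medians relative to SG of -1.09, -1.29 and 0.18 in YSGr and 0.04, 0.40 and 0.58 in YSGnr. In YSGr against YSGnr 3 of the 38 were lower (7.89%, where 0.879% of all tested genes were), and in YSGnr against SG none was called, with none at an unadjusted p below 0.05 by limma. Without YSGr replicate 3 these counts were 34 lower in YSGr against SG (13.6% of all tested genes), 36 lower in YSGr against YSGnr (20.6%) and 7 higher in YSGnr against SG (7.01%). The 4 lower in YSGr against SG came to 0 without YSGr replicate 1, SG replicate 1 or SG replicate 2, and to 1 without YSGr replicate 2 or SG replicate 3. The 3 lower in YSGr against YSGnr came to 24 without YSGnr replicate 1 and to 0 without any 1 of the other 7 libraries. Of 10 granule neuron progenitor genes, including Atoh1 and Gli1, all 10 were tested, 2 were lower in YSGr against SG (0 to 7 with 1 library left out in turn) and 1 of the 10 values was above 0. Of all tested genes 3.97% were lower there, and 0.435% to 13.6% with 1 library left out in turn. Their summed level ranged from 2223 to 3408 CPM in YSGr, from 3286 to 3644 CPM in YSGnr and from 3727 to 3790 CPM in SG. Their per-library medians were -1.18, -1.41 and -0.03 in YSGr and 0.05, -0.17 and -0.06 in YSGnr. Of 20 markers of mature granule neurons, 10 were higher in YSGr against SG, 5 in YSGnr against SG and 13 in YSGr against YSGnr, where 6.58%, 1.19% and 5.09% of all tested genes were. With 1 library left out in turn these counts ran from 7 to 19, from 0 to 6 and from 0 to 18. The share of all tested genes called higher reached 14.4%, 10.7% and 22.2% in those fits. Their summed level ranged from 2675 to 5227 CPM in YSGr, from 1758 to 2695 CPM in YSGnr and from 1845 to 2328 CPM in SG, with per-library medians of 1.55, 1.53 and 0.72 in YSGr.

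The counts of the next lists stand beside 6.58% of all tested genes higher and 3.97% lower in YSGr against SG, and 1.19% higher and 2.17% lower in YSGnr against SG. With 1 library left out in turn these 4 shares reached 14.4%, 13.6%, 10.7% and 11.4%. Of 12 myelin genes 9 were higher in YSGr against SG (2 to 12 with 1 library left out in turn) and 2 in YSGnr against SG (0 to 3), with summed levels of 2616 to 4091 CPM in YSGr, 877 to 1952 CPM in YSGnr and 646.3 to 1237 CPM in SG. Of 5 erythroid genes 3 were lower in YSGr against SG (0 to 4), with 342.2 to 599 CPM in YSGr, 631.4 to 1059 CPM in YSGnr and 777 to 1118 CPM in SG. Of 10 endothelial markers none was called in YSGr against SG (283.6 to 310.1 CPM in YSGr, 186.7 to 233.9 CPM in YSGnr, 296.2 to 328.3 CPM in SG), and 3 were lower in YSGnr against SG (0 to 5 with 1 library left out in turn). Of 6 oligodendrocyte progenitor markers 3 were lower in YSGr against SG and none was higher (396.3 to 533.5 CPM in YSGr, 602.4 to 663.4 CPM in YSGnr, 616.6 to 675.9 CPM in SG). The list was mixed, with 4 values below 0 and 2 above, those 2 at an unadjusted p below 0.05 by limma. With 1 library left out in turn, 0 to 4 were called lower and 0 to 2 higher. Of 7 markers of astrocytes and Bergmann glia 2 were higher in YSGr against SG (1 to 3 with 1 library left out in turn). Their summed levels were 1627 to 2657 CPM in YSGr, 1088 to 1736 CPM in YSGnr and 1672 to 1789 CPM in SG. None of 10 microglial and macrophage markers was called in any comparison by limma (1, 1 and 2 lower at an unadjusted p below 0.05 in YSGr against SG, YSGnr against SG and YSGr against YSGnr), with 202.2 to 284.5 CPM in YSGr, 163.5 to 439.6 CPM in YSGnr and 256.3 to 271.4 CPM in SG. With 1 library left out in turn, 0 to 4 were higher in YSGnr against SG. In YSGr against YSGnr 0 to 6 were then lower, where 0% to 20.6% of all tested genes were. The per-library medians of these markers relative to SG were -0.19, -0.48 and 0.22 in YSGr and -0.47, 0.77 and 0.99 in YSGnr. Every gene of these lists passed the filter on low values. Their part in the difference of the 40 genes was not tested.

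**Figure D5:**
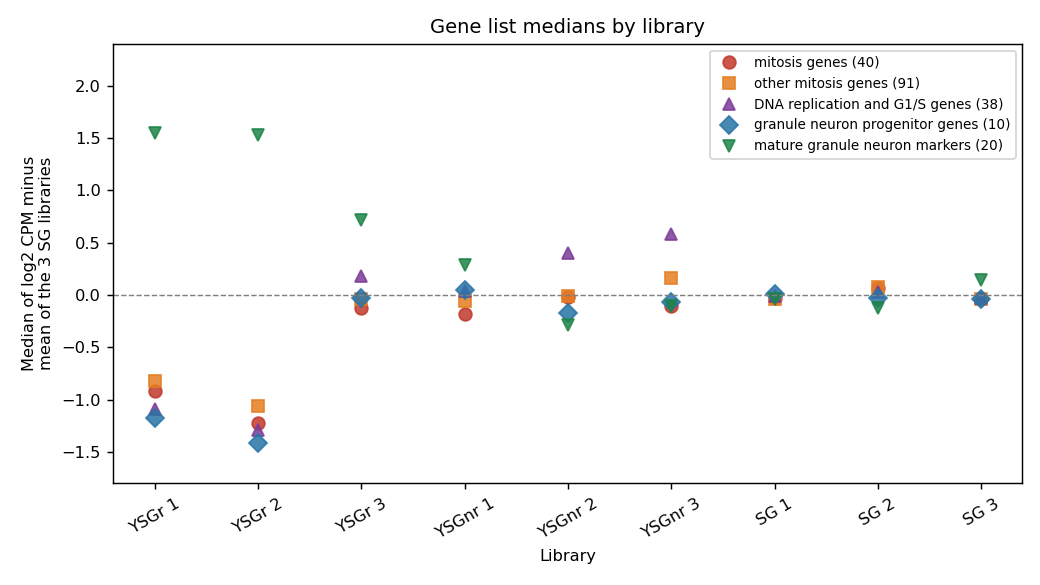
For each library, points give the median of a gene list relative to the mean of the 3 SG libraries (log2 units). The mitosis, replication and progenitor medians lie below 0 in YSGr replicates 1 and 2 and near 0 in replicate 3 (-0.13, 0.18 and -0.03), and the mature granule neuron median lies above 0 in all 3 YSGr libraries (1.55, 1.53 and 0.72).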

How the data were processed

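RNA of tumour tissue was extracted with a Trizol-type protocol and sequenced at BGI on the DNBseq platform, per the labels' protocols. Per the submitters' processing notes, the tools were edgeR, Picard, Bowtie2, RSEM and Trimmomatic and the build was mm10 (versions, annotation release, strand and ribosomal RNA removal: not given in the sources used here). Deposited log2 CPM values carry the authors' library scaling and an added count, which back-calculates to 2 reads on average. In each library 62.3% to 69.0% of values came out whole to within 0.02 reads, so no count test was run. Effective library sizes were 18.1 to 32.3 M reads in 8 libraries and 3.92 M reads in YSGnr replicate 1.

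Genes with log2 CPM above 0 in at least 3 of 9 libraries (15251) were fitted with limma 3.58.1 in R 4.3.3, with 1 mean per group, all 9 libraries sharing the spread, a trend of variance with level and two-sided moderated tests. Calls used a Benjamini-Hochberg adjusted p below 0.05 over all tested genes, and the steps were tested on simulated data. Because of the added count, fold changes of genes near the floor are understated. The 40 genes and the lists were chosen with earlier results of these data known. The naming rule covered all 40 genes, with every library's value for called genes and for the 2 genes of each role with the lowest adjusted p, up to 6 called genes of the wider mitosis list per comparison, and Yap1, Xist and Ddx3y. 1 gene that the rule names is not reported here. Lengths came from GENCODE M21 on GRCm38, where 98.87% of the 17482 genes matched a single gene, and 4 genes of the wider list were matched by older symbols. Replicates differed by more than sampling noise, with a median chi-square of at least 1.96 per gene, so none was merged. Alternatives are given under the dependence on the processing.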

Additional observations from a re-analysis of the deposited data

Results flagged for a closer look

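These 7 mitosis genes were called between the rescued and non-rescued groups of the same genotype, by limma's test of YSGr against YSGnr with all 9 libraries. Of all tested genes 0.879% were called lower there. Of the 40 genes these were Nuf2 (log2 fold change -0.99) and Ncapg (-0.75). Of the wider list they were Mastl (-0.86), Smc2 (-1.35), Cenph (-1.28), Pbk (-0.93) and Kif18a (-0.90), 5 of the 9 called there. All 7 were lower in YSGr. For Nuf2 and Ncapg all 3 YSGr libraries were below all 3 YSGnr libraries, as for 7.46% of all tested genes. Each of these 2 calls was kept in 2 of the 9 fits without 1 library. The 9 calls of the wider list ranged from 0 to 70 in those fits. Xist was high in all 3 YSGr libraries but only in replicate 1 of YSGnr, so the rescue label partly runs with sex-linked transcripts.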

How the results depend on the processing

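Among the 40 genes, no called value changed sign under the 20 alternatives, and the median log2 fold changes ran from -1.09 to -0.48 in YSGr against SG, from -0.17 to -0.08 in YSGnr against SG and from -1.04 to -0.46 in YSGr against YSGnr. Counts of calls moved more. With 1 library left out in turn, the number lower ranged from 1 to 40 in YSGr against SG, from 0 to 5 in YSGnr against SG and from 0 to 36 in YSGr against YSGnr. Over the same fits the share of all tested genes called lower ran from 0.435% to 13.6%, from 0% to 11.4% and from 0% to 20.6%. For the 38 replication genes the number lower ranged from 0 to 34 in YSGr against SG and from 0 to 36 in YSGr against YSGnr. With array weights 36, 1 and 37 of the 38 were lower in YSGr against SG, YSGnr against SG and YSGr against YSGnr. In YSGnr against SG 22 of the 38 were then higher, where 23.4% of all tested genes were. For the 91 other mitosis genes the ranges lower were 0 to 71, 0 to 9 and 0 to 70, and the number higher ranged from 0 to 3 in YSGnr against SG and from 0 to 1 in YSGr against YSGnr. In the 3 comparisons, YSGr against SG, YSGnr against SG and YSGr against YSGnr, the counts lower of the 40 were as follows. With array weights they were 40, 10 and 35, and 81, 12 and 72 of the 91, where 29.3%, 23.5% and 31% of all tested genes were lower. The counts higher were 0, 3 and 0 of the 40 and 1, 19 and 2 of the 91, where 26.9%, 23.4% and 30.7% of all tested genes were higher. Without both YSGr replicate 3 and YSGnr replicate 1 the counts lower were 40, 15 and 37 of the 40 and 80, 16 and 72 of the 91. Of all tested genes 26.4%, 26.7% and 33% were lower. The counts higher were 0, 8 and 0 of the 40 and 1, 26 and 2 of the 91, where 23.4%, 26.8% and 32.1% of all tested genes were higher. With the length trend removed the counts lower of the 40 were 19, 0 and 13 (6.05%, 1.72% and 4.58% of all tested genes). Of the 91, 26 were then lower in YSGr against YSGnr. With YSGr replicate 3 also left out, added after seeing the data, the counts lower of the 40 were 40, 5 and 39 (17.8%, 7.99% and 22.1% of all tested genes). Of the 91, 76 were lower in YSGr against SG and 76 in YSGr against YSGnr, and 8 were higher in YSGnr against SG (8.13% of all tested genes). With no filter the counts lower of the 40 were 12, 0 and 0 (3.27%, 1.7% and 0.412% of all tested genes). At an unadjusted p below 0.05 by limma 29, 5 and 28 were lower. Of the 91, 5 were called lower in YSGr against YSGnr. With median scaling the counts lower of the 40 were 15, 1 and 0 (4.2%, 1.67% and 0.354% of all tested genes). In YSGr against YSGnr 31 of the 40 were lower at an unadjusted p below 0.05 by limma, and 4 of the 91 were called lower there. With the 6 libraries of a comparison alone the counts lower of the 40 were 10, 2 and 0 (4.79%, 5.13% and 0% of all tested genes). In YSGr against YSGnr 15 of the 40 were lower at an unadjusted p below 0.05 by limma. Of the 91, 1 was higher in YSGnr against SG (2.67% of all tested genes) and 0 were lower in YSGr against YSGnr (43 unadjusted). The cause of these moves was not tested. Leaving out a YSGr library does not change the YSGnr and SG means. Calls in YSGnr against SG then move only through the shared spread and the set of tested genes.

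Replicate numbers are shared between groups but did not pair the libraries. Same-numbered libraries had deviations from their group means that correlated between -0.23 and 0.24, and the same number correlated best in 6 of 18 library and partner group pairs. With the replicate number as a block 10, 0 and 1 of the 40 were lower in the 3 comparisons (34, 4 and 29 at an unadjusted p below 0.05), and 16, 1 and 8 of the 91. Of all tested genes 2.83%, 1.54% and 1% were then lower. YSGnr replicate 1 had the fewest reads (9.66 M), and what its depth does to the calls was not tested.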
